A study of Mus musculus with 6 samples.

Results

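The peroxisome proliferator-activated receptors (PPARs), their obligate partners the retinoid X receptors (RXRs), their coactivators of the PGC-1 family and well-known direct targets were followed in dystrophic myoblasts. The genes were chosen by name, with earlier results of these data known. They comprised Ppara, Ppard, Pparg, Ppargc1a, Ppargc1b, Rxra, Rxrb, Angptl4, Cd36 and Fabp4, which gave 10 of the 47069 genes in the count table. The cells were muscle stem cells of mdx mice, a strain without dystrophin. The study's methods describe a serum-rich growth medium with FGF2 and a low-serum one for differentiation, without naming that of the sequenced cells. The cells were sorted for Itga7 and Itgb1 and against Sca-1, CD45, CD31 and CD11b, and were cultured as myoblasts. They received either vehicle (DMSO diluted in aqueous buffer) or 10 μM PSB-KD107, a synthetic agonist of the receptor Gpr18, so that both groups carried the mdx genotype and only the compound differed. The sample records give a treatment of 2 days, whereas the methods describe an overnight treatment. The methods name 3 mice as the source of the cells. Their age is not given for this experiment in the sources used here, and nothing ties a library to a mouse, so p-values measure the spread between these libraries. There were 3 libraries per group, numbered 1, 2 and 4 in the count table.

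PPARs are nuclear receptors that bind fatty acids and their derivatives, pair with an RXR and sit on DNA repeats in the control regions of lipid genes. Ligand binding exchanges corepressors for coactivators, among which PGC-1α, encoded by Ppargc1a, drives mitochondrial biogenesis and oxidative metabolism in muscle. PPARδ is the predominant form in skeletal muscle, PPARα is known from liver and heart, and PPARγ from adipocytes and macrophages. Typical targets bring fatty acids into the cell, store them in droplets or burn them.

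Library depth ranged from 30917613 to 48756794 counts, so that 3 counts corresponded to between 0.0596 and 0.0962 CPM (counts brought to a common library size with TMM factors), a floor that covers counting error only. Of 10 myoblast markers, Des, which encodes desmin, lay between 2784 and 3932 CPM and the myogenic factor Myod1 between 399 and 1060 CPM. The summed level of the list was 7957 to 8229 CPM with vehicle and 7524 to 7791 CPM with PSB-KD107, without overlap. Of the 10, 2 were higher and 8 lower (20% higher against 49.9% over all genes). Myf5 was at 3.57 CPM in vehicle library 1 and 4.23 CPM in PSB-KD107 library 1, against 18.6 to 40.9 CPM in the others. Most markers of other cell types were near 0. Of 10 adipocyte markers 3 could be tested, among them Cebpa at 2.73 to 11.2 CPM and Car3, which muscle also expresses, at 48.4 to 210 CPM, while Plin1 and Retn had 0 counts in all 6 libraries and Adipoq had 1 count in all. The summed level of the list, mostly Car3, was 68.1 to 159.8 CPM with vehicle and 58.2 to 224.1 CPM with PSB-KD107. Of 10 macrophage markers 3 could be tested, Itgam and Cd68 having the highest mean levels per length, and Adgre1 and Tyrobp were at 0, and the summed level of the list was 4.06 to 5.94 CPM with vehicle and 2.81 to 7.97 CPM with PSB-KD107. Of 10 endothelial markers 3 could be tested, led by Egfl7 and Vwf, with Tie1 and Emcn at 0 and sums of 3.61 to 9.01 and 5.39 to 12.4 CPM. For 8 markers of fibro-adipogenic progenitors, led by Ly6a and Cd34, of which 4 could be tested and Lum was at 0, the sums were 1.95 to 5.26 CPM with vehicle and 2.31 to 12.6 CPM with PSB-KD107. PSB-KD107 library 4 had 8.36 CPM of Ly6a, which encodes the sorting marker Sca-1, against at most 1.29 CPM in the others. Of the same list, Smoc2 (1.93 CPM) and Pdgfra (1.46 CPM) were also highest in that library, whereas Dcn was lowest (0.0275 CPM). Cd34 (0.770 CPM) lay within the range of the others, and Dpt and Pi16 had at most 3 counts in any library. PSB-KD107 library 4 was also the library farthest from its group for Ppargc1a, Pparg and Angptl4 described next. Of the tested markers of these other cell types, Vwf, Cd34 and Dcn were highest in both libraries 1, as was Cd36 below. Vwf had 4.67 CPM in vehicle library 1 and 8.31 CPM in PSB-KD107 library 1, against 1.03 to 2.09 CPM in the others. Car3, Lipe and Mrc1 were instead lowest in both libraries 1, and the remaining tested markers had neither order. The part of these markers in the results was not tested. In bulk RNA, fewer cells of a type and less RNA per cell cannot be told apart.

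The groups were compared by edgeR's quasi-likelihood method over all 14165 genes that passed its filter on low counts, with Benjamini-Hochberg adjustment. At an adjusted p-value under 0.05 it called 0 of all genes, which is 0%, and 0 of the 9 PPAR and RXR genes that could be tested. Only Fabp4 failed the filter. At an unadjusted p-value under 0.05 the test gave 1331 genes (9.4%), and 2 of the 9 were among them, Ppargc1a and Ppard, both higher with PSB-KD107, where 6.47% of all genes were higher and 2.93% lower. DESeq2, the tool of the study's methods, called 480 genes (3.39%, 2.46% being higher and 0.925% lower) and 1 of the 9, Ppargc1a. Those methods also name a fold-change cutoff and a filter on FPKM, which this fit did not apply, so its count is not the study's. edgeR also called 0 genes whichever of the 6 libraries was left out. Without 1 library DESeq2 called 184 genes without vehicle library 2, 195 without vehicle library 4, 291 without PSB-KD107 library 1, 815 without PSB-KD107 library 2, and 648 and 714 without the other two, with Ppargc1a called every time.

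Upstream sequences are shown for Ppargc1a and Ppard, the members with the smallest p-values, and for Cd36, the target with the highest level. They come from RefSeq (GRCm38.p6), which gave promoter windows for 7 of the 10 genes, and hold bases before an annotated start that lie in no annotated exon. Angptl4, Fabp4 and Ppargc1b had no window. Capitals mark matches on either strand to AGGTCA, the half-site of nuclear receptors, or to TGACG, the half-site of the cyclic AMP response element.
Ppargc1a (chr5:51567727-51567975, minus strand): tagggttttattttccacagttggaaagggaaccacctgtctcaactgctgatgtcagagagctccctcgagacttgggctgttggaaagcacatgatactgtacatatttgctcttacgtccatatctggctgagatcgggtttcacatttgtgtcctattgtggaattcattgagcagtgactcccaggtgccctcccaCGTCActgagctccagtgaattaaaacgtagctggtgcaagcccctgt
Ppard (chr17:28232504-28232699, plus strand): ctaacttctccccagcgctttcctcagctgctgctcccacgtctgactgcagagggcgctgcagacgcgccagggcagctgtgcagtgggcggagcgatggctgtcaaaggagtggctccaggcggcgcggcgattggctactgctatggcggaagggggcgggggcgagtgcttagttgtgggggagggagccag
Cd36 (chr5:17835897-17836146, minus strand): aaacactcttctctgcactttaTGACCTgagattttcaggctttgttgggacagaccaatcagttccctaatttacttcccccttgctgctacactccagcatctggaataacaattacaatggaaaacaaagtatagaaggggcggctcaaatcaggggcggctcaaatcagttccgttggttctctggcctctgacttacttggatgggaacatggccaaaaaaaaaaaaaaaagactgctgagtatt
The match in Ppargc1a is TGACG read on the opposite strand and begins 49 bases before the start. The match in Cd36 is AGGTCA on the opposite strand and begins 228 bases before the start that its window belongs to. That start is an internal one, inside the annotated span of Cd36 (17781690 to 17888801). The bases before the outer end of the gene were not searched. In windows of 250 bases, 17.8% of 32851 promoters held TGACG and 14% held AGGTCA, so that neither is rare. The PPAR element DR1, a repeat of AGGTCA after 1 base of any kind, was in 0.0335% of the promoters and in 0 of the 11 windows of these genes. The full cyclic AMP response element TGACGTCA, which contains TGACG, was in 1.55% and in 0 of the 11. A match describes the letters only, and its absence says nothing of binding elsewhere in a gene.

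Ppargc1a (ENSMUSG00000029167, chromosome 5 from 51454250 to 51567726 in GRCm38) differed most of the 9 genes. It had 249, 353 and 228 counts in vehicle libraries 1, 2 and 4, whereas the treated libraries of the same numbers held 894, 721 and 1927 counts. Normalized, these were 6.35, 10.1 and 7.07 CPM with vehicle and 17.8, 23.1 and 53.0 CPM with PSB-KD107. All 3 treated libraries lay above all 3 vehicle libraries, and treated library 4 lay far above the other two. The mean was 7.85 ± 1.99 CPM with vehicle and 31.3 ± 19.0 CPM with PSB-KD107 (± SD, n = 3 libraries each), giving a log2 fold change of 2.00 (SE 0.46, 95% interval 0.88 to 3.11, edgeR adjusted p = 0.264, DESeq2 adjusted p = 0.00149). The gene was number 239 of all genes by p-value in edgeR. Without PSB-KD107 library 4 the log2 fold change was 1.38 (edgeR adjusted p = 0.186, DESeq2 adjusted p = 3.7e-04), and over all 6 libraries left out in turn the DESeq2 adjusted p lay between 1.5e-04 and 0.0474. With the same number on both sides, the log2 ratio was 1.47, 1.19 and 2.89 for libraries 1, 2 and 4. The groups did not overlap in 15.8% of all genes tested (9.2% higher with PSB-KD107, 6.59% lower).

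Ppargc1b, the paralog of Ppargc1a and likewise a coactivator of oxidative genes, had a log2 fold change near 0. Its levels were 15.4, 21.9 and 21.7 CPM with vehicle and 19.4, 23.7 and 17.6 CPM with PSB-KD107. The groups overlapped, and the log2 fold change of 0.04 had a 95% interval from -0.44 to 0.52 (edgeR adjusted p = 0.960), turning to -0.11 without vehicle library 1 and to -0.09 without PSB-KD107 library 2. Per length of annotated exons (FPKM), Ppargc1a made up 16.5% to 21.8% of the summed level of both coactivators with vehicle and 35.6% to 64.6% with PSB-KD107. These shares did not overlap between the groups.

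**Figure D1:**
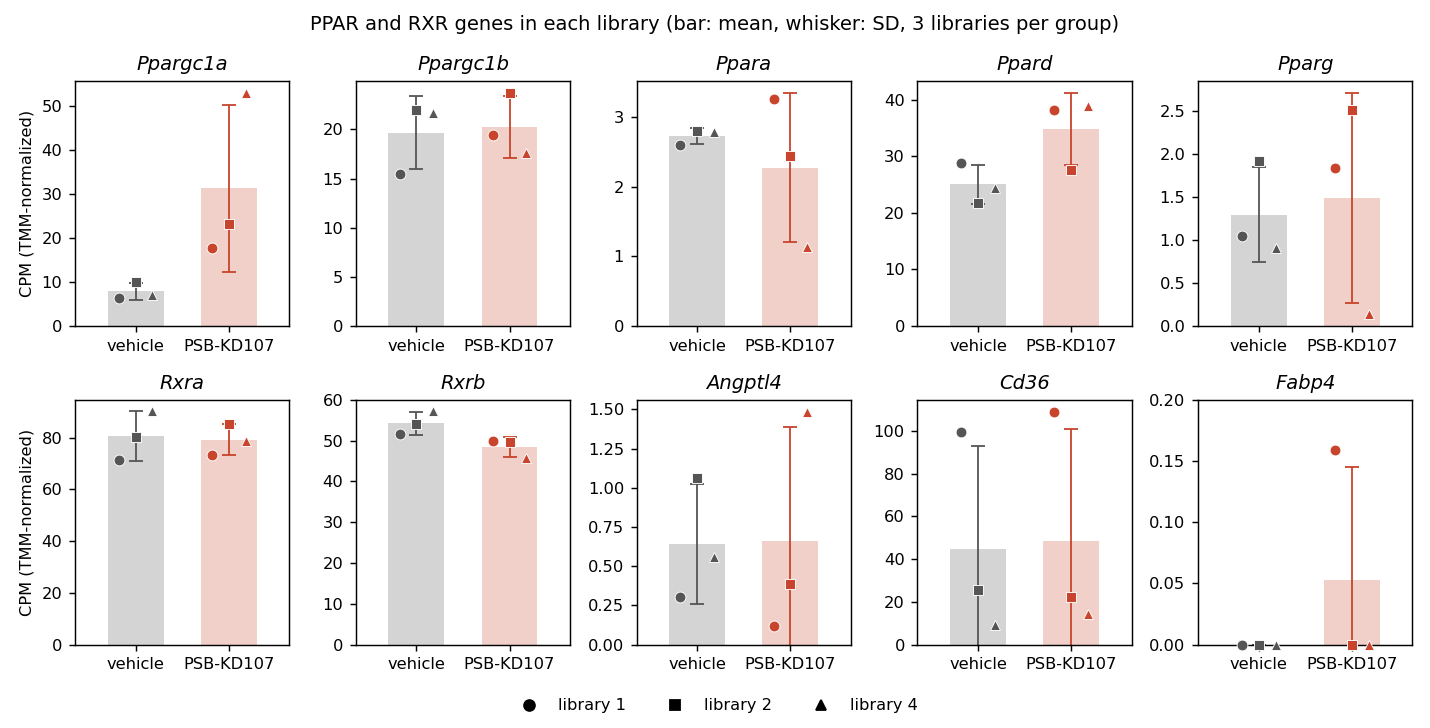
TMM-normalized CPM of each of the 10 genes (vertical axes from 0, in CPM) in vehicle (grey) and PSB-KD107 (red) libraries. Points are libraries, bars are means and whiskers are SDs over 3 libraries, cut off at 0. Ppargc1a lies higher in all 3 treated libraries, Rxrb slightly lower in all 3, Cd36 follows the library number and Fabp4 has counts in 1 library only.

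Among the receptors, Ppard was the most abundant PPAR and the other gene with an unadjusted p-value under 0.05. Ppard (chromosome 17 from 28232700 to 28301474) had 28.8, 21.8 and 24.4 CPM with vehicle and 38.2, 27.5 and 38.8 CPM with PSB-KD107. Treated library 2 lay below vehicle library 1, so that the groups overlapped. The mean was 25.0 ± 3.51 CPM with vehicle and 34.9 ± 6.38 CPM with PSB-KD107 (± SD, n = 3), with a log2 fold change of 0.48 (SE 0.18, edgeR adjusted p = 0.502, DESeq2 adjusted p = 0.341). The ratio was above 0 on the log2 scale for each library number, at 0.41, 0.33 and 0.67. Without PSB-KD107 library 2 it was 0.62, and DESeq2 then called it (adjusted p = 0.0291, against 0.151 to 1 without any other library).

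Ppara, the fatty acid sensor of oxidative tissues (chromosome 15 from 85734983 to 85802819), was low and even with vehicle, at 2.60, 2.81 and 2.79 CPM, and spread from 3.26 to 2.44 and 1.13 CPM in PSB-KD107 libraries 1, 2 and 4. Vehicle values thus lay inside the treated range. The log2 fold change was -0.26 (95% interval -1.26 to 0.73, edgeR adjusted p = 0.866), and it was 0.06 without PSB-KD107 library 4.

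Pparg, the receptor of adipogenesis (chromosome 6 from 115360951 to 115490399), had 41, 67 and 29 counts with vehicle and 92, 78 and 5 counts with PSB-KD107. Treated library 4 held the lowest level of the 6, 0.138 CPM, and treated libraries 1 and 2 held 1.83 and 2.50 CPM. The log2 fold change was 0.21 with a 95% interval from -1.99 to 2.40 (edgeR adjusted p = 0.958), wide in both directions. It was 0.74 without PSB-KD107 library 4 and -0.38 without PSB-KD107 library 2.

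The RXRs had the smallest standard errors of the 9 genes. Rxra (chromosome 2 from 27676440 to 27762957) gave 71.1, 80.3 and 90.2 CPM with vehicle and 73.3, 85.2 and 78.8 CPM with PSB-KD107. All treated values lay inside the vehicle range, and the log2 fold change of -0.03 had a 95% interval from -0.32 to 0.27 (edgeR adjusted p = 0.959). It was 0.06 without vehicle library 4 and 0.01 without PSB-KD107 library 1. Rxrb (chromosome 17 from 34031812 to 34038399) gave 51.5, 54.1 and 57.2 CPM with vehicle and 49.9, 49.7 and 45.7 CPM with PSB-KD107. Here the treated libraries were all just below the vehicle libraries. The log2 fold change was -0.16 (SE 0.09, edgeR adjusted p = 0.644, DESeq2 adjusted p = 0.499), and of all genes 6.59% were lower without overlap. For Ppargc1a and Rxrb, whose groups did not overlap, the two-sided exact permutation test gave p = 0.1, the smallest that 3 against 3 allows.

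Per length, RXR transcripts outnumbered PPAR transcripts. The level summed over Rxra, Rxrb and the muscle-enriched Rxrg was 34.1 to 36.9 FPKM with vehicle and 32.6 to 34.1 FPKM with PSB-KD107. The sum over the PPARs was 4.29 to 4.86 FPKM with vehicle and 5.14 to 6.56 FPKM with PSB-KD107. Ppard supplied 67.8% to 78.8% of the PPAR sum with vehicle and 71.2% to 93.8% with PSB-KD107. The share of Ppara was 14.0% to 17.1% with vehicle and 5.34% to 13.0% with PSB-KD107, without overlap. That of Pparg was 7.11% to 15.2% and 0.846% to 16.5%. The PPAR sum, by which these shares are divided, was itself higher without overlap, whereas the level of Ppara overlapped between the groups. How often such shares differ without overlap was not computed.

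In vehicle libraries, the order of mean levels was Rxra at 14.8 FPKM, Rxrb at 13.7, Cd36 at 12.5, Ppargc1b at 4.93, Ppard at 3.33, Ppargc1a at 1.19, Ppara at 0.713, Pparg at 0.436 and Angptl4 at 0.181 FPKM. Rxra and Rxrb overlapped in range, and Cd36 overlapped Rxra, Rxrb, Ppargc1b and Ppard. Ppargc1b lay above Ppard in every vehicle library, by little in library 1, at 3.87 against 3.83 FPKM. Ppard lay apart from Ppargc1a, and Ppargc1a apart from Ppara, in all vehicle libraries. With PSB-KD107, Ppargc1a at 2.70 to 8.04 FPKM overlapped both Ppard at 3.66 to 5.17 FPKM and Ppargc1b at 4.41 to 5.95 FPKM. Lengths are those of all annotated exons and may differ from the transcripts present.

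**Figure D2:**
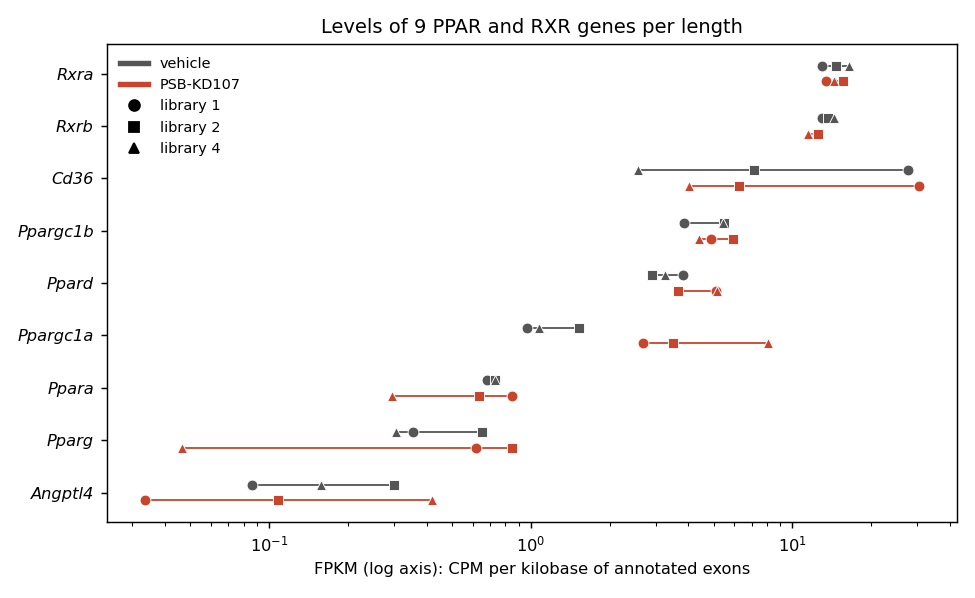
Levels of 9 genes in FPKM (horizontal log axis), ordered by the vehicle mean, with a point for each library and a line over the range of each group. Rxra and Rxrb have the highest vehicle means and are narrow. Cd36 spans from 2.58 to 30.4 FPKM and lies above both in libraries 1 of either group. Fabp4 is not drawn because 5 of its 6 libraries are at 0.

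The direct targets differed in level and in their order over the libraries. Angptl4, a secreted inhibitor of lipoprotein lipase that fatty acids induce through PPARs (chromosome 17 from 33773750 to 33781830), was low. It had 12, 37 and 18 counts with vehicle and 6, 12 and 54 counts with PSB-KD107. The highest and the lowest library were both treated. The log2 fold change was 0.04 with a 95% interval from -2.23 to 2.31 (edgeR adjusted p = 0.990), and it was -1.38 without PSB-KD107 library 4, -0.30 without vehicle library 1 and -0.05 without vehicle library 4. By library number the log2 ratio was -0.89, -1.26 and 1.27 for libraries 1, 2 and 4.

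Cd36, the fatty acid translocase of the plasma membrane (chromosome 5 from 17781690 to 17888801), was abundant but followed the library number rather than the treatment. It reached 99.5, 25.5 and 9.24 CPM in vehicle libraries 1, 2 and 4, and 109, 22.4 and 14.5 CPM in the PSB-KD107 libraries. Libraries 1 were high, libraries 4 low and libraries 2 between them in both groups. The highest vehicle library had 10.8 times the level of the lowest, whereas the log2 ratio within a number was 0.13, -0.19 and 0.64. The log2 fold change was 0.12 (SE 1.07, edgeR adjusted p = 0.978). Leaving out a single library moved it from -1.30 (without PSB-KD107 library 1) to 1.49 (without vehicle library 1), and it was -0.17 without vehicle library 2 and -0.36 without vehicle library 4.

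Fabp4, the fatty acid chaperone of adipocytes (chromosome 3 from 10204088 to 10208576), had 0 counts in all vehicle libraries and in PSB-KD107 libraries 2 and 4. PSB-KD107 library 1 held 8 counts, or 0.159 CPM. The treated mean was under the floor of 3 counts, so no fold is given. At this depth Fabp4 was not detectable in 5 of the 6 libraries.

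**Figure D3:**
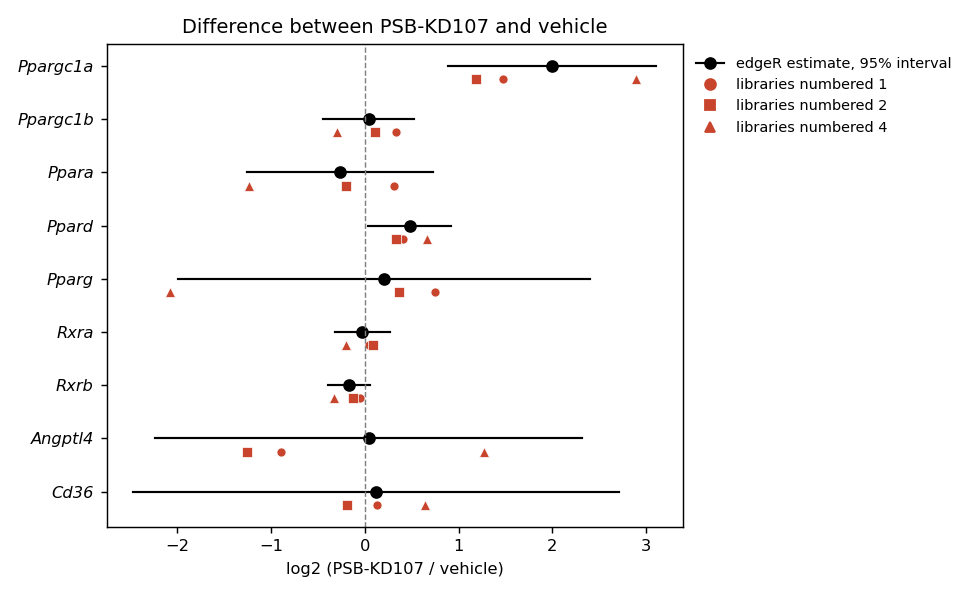
Log2 ratio of PSB-KD107 to vehicle (horizontal axis) for 9 genes. Black points and lines are edgeR estimates with 95% intervals over 3 libraries per group, and red symbols are ratios of the libraries with the same number. Only the intervals of Ppargc1a and Ppard lie above 0 before adjustment, and those of Pparg, Angptl4 and Cd36 span more than 4 log2 units.

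Genes with levels most like those of 4 of these genes were named by Pearson correlation of log2 CPM over the 6 libraries, against 14164 genes. For Ppargc1a they were Nmrk1, a nicotinamide riboside kinase (r = 0.9997), Ap2b1 (0.996) and Mreg (0.995), with log2 fold changes of 0.49, 0.23 and 0.52. For Ppard they were the lipid droplet coat gene Plin3 (0.994) and the respiratory chain genes Uqcrc2 (0.994) and Uqcrb (0.991), with log2 fold changes of 0.51, 0.13 and 0.18. For Rxrb they were the cannabinoid receptor gene Cnr1 (0.993), Relb (0.990) and Ift80 (0.990). For Ppara they were Sec61a1 (0.996), Polr3b (0.995) and Zfp518a (0.995). All values rest on the same 6 libraries, and between 308 and 481 genes exceeded 0.9 for each of these 4.

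Most other coregulators and partners had log2 fold changes near 0. Of 19 tested of 20 listed, 5 were higher and 14 lower (26.3% higher against 49.9% over all genes). Their median was -0.09 on the log2 scale, that of all genes tested -0.0007. edgeR called 0 and DESeq2 called 1 as higher (5.26% against 2.46% over all genes), Lpin1, a phosphatidate phosphatase that also acts as a coactivator with PGC-1α. Lpin1 was at 27.3 ± 1.88 CPM with vehicle and 49.8 ± 10.8 CPM with PSB-KD107 (± SD, n = 3), and its groups did not overlap, for a log2 fold change of 0.87 (edgeR adjusted p = 0.238, DESeq2 adjusted p = 0.00482). The DESeq2 call of Lpin1 was lost without vehicle library 2 (adjusted p = 0.144), vehicle library 4 (0.116) or PSB-KD107 library 1 (0.0827). Helz2, a PPAR coactivator that interferon also induces, had a log2 fold change of 2.75 that rested on 1 library. It was at 73.5 CPM in PSB-KD107 library 4 and between 3.27 and 10.8 CPM elsewhere, and without that library its log2 fold change was 0.71. DESeq2 called Helz2 when PSB-KD107 library 2 was left out (adjusted p = 0.00145, against 0.0842 to 0.836 without any other library). The coactivators Ncoa3 and Ncoa1 had log2 fold changes of 0.20 and -0.59, and their groups overlapped.

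Further PPAR targets were more often higher than lower. Of 60 target genes listed, 45 could be tested, 34 of which were higher and 11 lower with PSB-KD107. Their median was 0.30 on the log2 scale against -0.0007 over all genes tested, of which 49.9% were higher. At an unadjusted p-value under 0.05, 10 were higher and 0 lower (22.2% against 6.47% over all genes), and in 15 the treated libraries all lay above the vehicle libraries (33.3% against 9.2%). edgeR called 0 of them after adjustment, and DESeq2 called 7 (15.6% against 2.46%). The DESeq2 count was 3 without vehicle library 2 or 4, 4 without PSB-KD107 library 1, and 8 or 9 without any other library. Over all genes DESeq2 called 184 to 815 in these fits. These lists were chosen with earlier results of these data known and are no independent evidence of a direction.

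In the oxidation list, 17 of 24 tested genes were higher (70.8% against 49.9% over all genes) and the median was 0.17. DESeq2 called 4 of them (16.7% against 2.46% over all genes). Acot2, a mitochondrial acyl-CoA thioesterase whose reads may be shared with its close paralog Acot1, gave 12.7, 8.94 and 8.19 CPM with vehicle and 29.1, 24.3 and 24.1 CPM with PSB-KD107, a log2 fold change of 1.38 (edgeR adjusted p = 0.184, DESeq2 adjusted p = 2.9e-06). Cpt1b, which admits fatty acids to mitochondria in muscle, went from 0.736 ± 0.111 to 2.36 ± 0.341 CPM (± SD, n = 3), a log2 fold change of 1.68 (edgeR adjusted p = 0.184, DESeq2 adjusted p = 2.7e-04). The vehicle libraries held 20 to 33 counts of Cpt1b. Its means of 0.218 FPKM with vehicle and 0.700 FPKM with PSB-KD107 lay under the FPKM minimum of 1, so that filter removed Cpt1b. Pdk4, the kinase that shuts off pyruvate oxidation and a classic PPARδ target in muscle, gave 49.7, 47.3 and 42.1 CPM with vehicle and 76.5, 64.3 and 97.9 CPM after treatment, which gave 0.78 on the log2 scale (edgeR adjusted p = 0.253, DESeq2 adjusted p = 0.0101). DESeq2 did not call Pdk4 without vehicle library 2 (adjusted p = 0.165), vehicle library 4 (0.188) or PSB-KD107 library 1 (0.0698), and it called Acot2 and Cpt1b whichever library was left out.

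In the uptake and storage list, 17 of 21 tested genes were higher (80.95% against 49.9% over all genes) and the median was 0.39. DESeq2 called 3 of them (14.3% against 2.46% over all genes). Plin2, the lipid droplet coat protein, gave 30.8, 29.3 and 26.3 CPM with vehicle and 104, 54.7 and 81.8 CPM with PSB-KD107, a log2 fold change of 1.48 (edgeR adjusted p = 0.184, DESeq2 adjusted p = 1.5e-05). Slc27a1, a fatty acid transporter, gave 15.6, 14.1 and 13.7 CPM with vehicle and 56.7, 30.0 and 23.7 CPM with PSB-KD107 (edgeR adjusted p = 0.297, DESeq2 adjusted p = 0.0101). Plin2 kept its DESeq2 call whichever library was left out, and Slc27a1 lost it without vehicle library 2 (adjusted p = 0.165) or 4 (0.142). Acsl5, which activates fatty acids, and Fabp3, the fatty acid chaperone of muscle, had log2 fold changes of 0.82 and 1.15, and for both the groups did not overlap. DESeq2 called Acsl5 (adjusted p = 0.0142) and did not call Fabp3 (adjusted p = 0.165). Acsl5 lost the call without vehicle library 2 (adjusted p = 0.155), vehicle library 4 (0.0563) or PSB-KD107 library 1 (0.155). DESeq2 called Fabp3 without vehicle library 1 (9.8e-04) and with the replicate block over all 6 libraries (0.00702), where edgeR did not (0.331). Without vehicle library 1 the median of the list was 0.88, and with any other library left out it was between 0.35 and 0.58.

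Genes that belong to the PPAR pathway but are also under the sterol-responsive factors SREBP were, where tested, all higher with PSB-KD107. Of 9 listed, 8 could be tested. Their median was 1.39 on the log2 scale, and in 7 the treated libraries all lay above the vehicle libraries (87.5% against 9.2% over all genes). edgeR called 0 and DESeq2 called 4 (50% against 2.46%). Acsl3 and Hmgcs1, which act in acyl-CoA and mevalonate synthesis, had log2 fold changes of 0.65 and 1.37, and Fads1, a fatty acid desaturase, and Dbi, an acyl-CoA binding protein, had 1.60 and 0.64. DESeq2 called Acsl3 whichever library was left out. Hmgcs1 and Fads1 lost their DESeq2 calls without vehicle library 2 (adjusted p = 0.115 and 0.300), vehicle library 4 (0.0779 and 0.129) or PSB-KD107 library 1 (0.0700 and 0.181), and Fads1 also without PSB-KD107 library 2 (0.0775). Dbi was not called by DESeq2 with all libraries (adjusted p = 0.191). DESeq2 called Dbi without vehicle library 1 (4.7e-04) and with the replicate block over all 6 libraries (0.00218), where edgeR did not (0.227). The DESeq2 count was 1 without vehicle library 2, vehicle library 4 or PSB-KD107 library 1, 2 without PSB-KD107 library 2, and 7 without vehicle library 1. Over all genes DESeq2 called 184 to 815 in the fits with a library left out. Without vehicle library 1 the median was 2.04. The median of these genes and of the targets above was not tested for a difference. This list and the coregulator list were likewise chosen with earlier results of these data known and are no independent evidence of a direction.

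**Figure D4:**
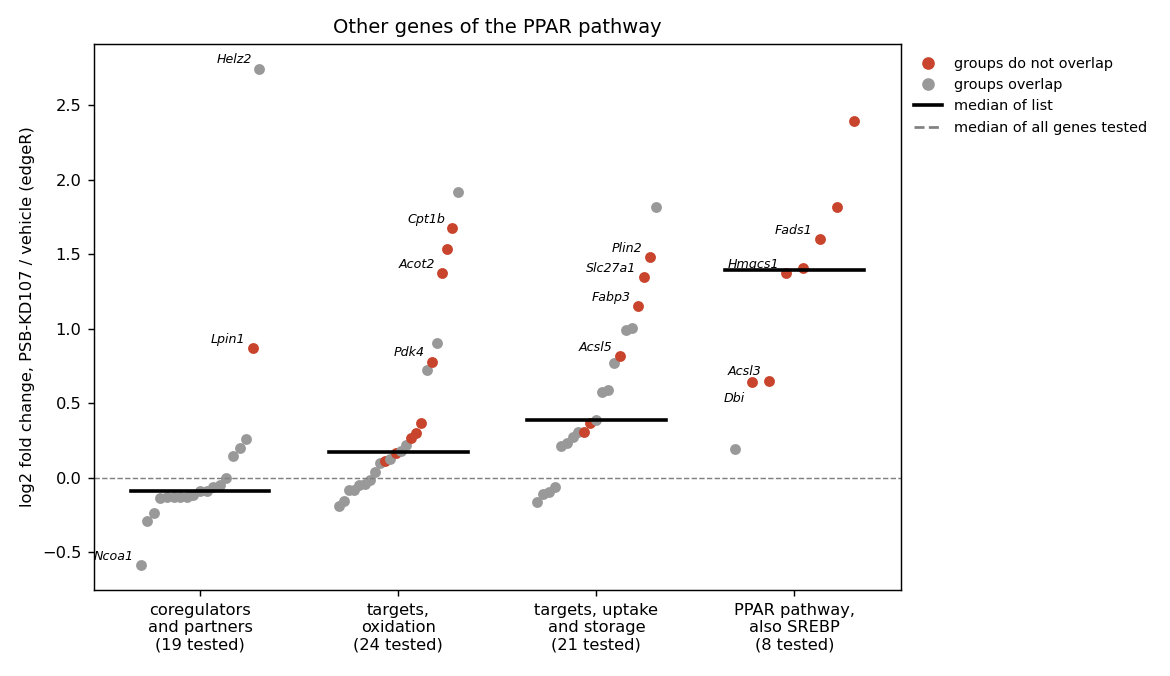
Log2 fold change of PSB-KD107 over vehicle (vertical axis, edgeR) for every tested gene of the coregulator list, both target lists and the list shared with SREBP, ordered by value within each list. Red points are genes whose groups do not overlap, black bars are list medians (-0.09, 0.17, 0.39 and 1.39) and the dashed line is the median of all genes tested. Names are given for genes described in the text that differ by over 0.5.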

How the data were processed

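The members and lists were chosen with earlier results of these data known. The authors aligned paired-end reads of polyadenylated RNA to the mouse genome (mm10) with STAR and deposited raw counts per gene, with no normalization. The counting program, its annotation and its use of strand are not given in the sources used here, so counts of close paralogs are uncertain. Exons of the 10 genes overlap no other gene in GENCODE M21 (GRCm38), from which coordinates and exon lengths were taken. Columns were assigned to groups by the sample titles. Those numbered 4 match no single record and count as the remaining replicate of their group. In R 4.3.3, genes were filtered with filterByExpr, scaled with TMM and tested with edgeR 4.0.16 (quasi-likelihood, Benjamini-Hochberg, threshold 0.05). Standard errors and 95% intervals were derived from the F statistic. DESeq2 1.42.0 was an alternative, as were RLE factors, no filter, an FPKM filter, replicate blocks and leaving out each library. Ratios between libraries of the same number used an offset of 0.1 CPM. The scripts were tested on simulated counts. Named genes were the 10 members, the 4 genes of each PPAR list with the smallest p-values, the 2 highest of each marker list by mean FPKM, and the 3 most correlated with each of the 4 members with the smallest p-values. A gene named by this rule is not reported here. Other genes, such as markers at 0, were named after their values were seen.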

Additional observations from a re-analysis of the deposited data

How the results depend on the processing

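At an adjusted p-value under 0.05, edgeR called 0 genes with TMM or RLE factors, with an FPKM minimum of 1 and with any library left out, and 8 genes, none of them a PPAR or RXR gene, with no filter on low counts. DESeq2 called 480 genes and 1 of the members, and between 184 and 815 genes and between 1 and 2 members with a library left out, against 0 for edgeR throughout. Ppargc1a kept its direction in all alternatives, between 1.31 and 2.27 on the log2 scale. The median of the target genes lay between 0.25 and 0.37. The paired analysis by replicate block rests on table numbers only. Across 14165 genes the deviations from the group means of same-numbered libraries had correlations of 0.63, 0.50 and -0.13 for numbers 1, 2 and 4. Vehicle library 4 correlated best with PSB-KD107 library 2 (0.64). Deviations from a group mean depend on one another within the group, so these correlations cannot decide whether the numbers pair the libraries. With the replicate block over all 6 libraries edgeR called 0 genes, and DESeq2 called 633 genes and 1 member. With the block on the libraries numbered 1 and 2, which leaves 1 degree of freedom, edgeR called 2456 of 14400 genes and 2 members (Ppargc1a, Ppard). On the same libraries without a block, an alternative added after seeing the data, edgeR called 0 genes.

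For 6 members the direction turned in some alternatives. With the block on libraries 1 and 2, the log2 fold change was 0.077 for Ppara, 0.063 for Rxra, -1.41 for Angptl4 and -0.011 for Cd36, and without the block on these libraries 0.075 for Ppara, 0.065 for Rxra and -1.47 for Angptl4. With the block over 6 libraries it was -0.25 for Pparg and -0.38 for Angptl4, and -0.35 and -0.49 in DESeq2. With a library left out, in edgeR or DESeq2, the ranges were -0.64 to 0.060 for Ppara, -0.39 to 0.74 for Pparg, -0.12 to 0.13 for Ppargc1b, -0.12 to 0.062 for Rxra, -1.39 to 0.61 for Angptl4, and -1.30 to 1.49 for Cd36. The cause of these turns was not tested. Angptl4, Pparg and Fabp4 rest on the fewest counts.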

Other observations

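Of 21 tested genes of the uptake and storage list, 6 had the library order of Cd36, highest in library 1 and lowest in library 4, in both groups, and 0 had the opposite order in both. With vehicle alone 13 had that order and 3, Lipe, Slc27a4 and Gk, the opposite one. Of 24 tested genes of the oxidation list, 2 (Acot2 and Ucp2) had the order of Cd36 in both groups and 3 the opposite order in both. With vehicle alone these counts were 8 and 4. The share of all genes with either order was not computed. Of the 6 in the uptake and storage list, 3 are given here, chosen after their values were seen. Lpl, the lipoprotein lipase that releases fatty acids at the cell surface, had 65.2, 17.0 and 11.3 CPM in vehicle libraries 1, 2 and 4 and 77.0, 21.9 and 16.6 CPM in the PSB-KD107 libraries. Mgll, the monoglyceride lipase, had 63.0, 19.9 and 10.4 CPM with vehicle and 54.3, 18.4 and 10.5 CPM with PSB-KD107. Fabp5, a fatty acid chaperone, had 9.29, 2.46 and 2.05 CPM with vehicle and 12.2, 4.65 and 3.74 CPM with PSB-KD107.

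Pax7, the marker of muscle stem cells, was lower in all 3 treated libraries, at 34.0, 26.8 and 35.1 CPM against 68.8, 49.9 and 60.0 CPM with vehicle, a log2 fold change of -0.90 (edgeR adjusted p = 0.209, DESeq2 adjusted p = 6.7e-04, n = 3). DESeq2 called it whichever library was left out. The other 9 myoblast markers were not called by either tool. Ucp3, a mitochondrial carrier and PPAR target of muscle, had 2.83, 1.98 and 1.33 CPM with vehicle and 6.08, 2.76 and 14.4 CPM with PSB-KD107, with treated library 4 the highest and treated library 2 below vehicle library 1. Its log2 fold change was 1.92 (edgeR adjusted p = 0.440) and 1.11 without PSB-KD107 library 4, and DESeq2 called it only without PSB-KD107 library 2 (adjusted p = 0.00219).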
